A study of Mus musculus with 4 samples.

Results

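The 10 genes described here belong to the FoxO arm of insulin signalling and to the protein breakdown it controls in muscle. They are the transcription factors Foxo1, Foxo3 and Foxo4, the muscle ubiquitin ligases Trim63 and Fbxo32, the autophagy and lysosome genes Bnip3, Map1lc3b, Gabarapl1 and Ctsl, and the repressor gene Bcl6. They were chosen by symbol, and every probe set that the platform annotation assigns to one of these symbols alone was taken, which gave 24 of the 45101 probe sets on the array. One further probe set is assigned to Foxo3 together with a second gene and was not counted. Each gene was represented by its probe set with the highest mean over all arrays, as were all 18193 genes tested.

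When insulin or growth factors activate the kinase Akt, Akt phosphorylates both GSK-3beta, which inhibits that kinase, and the FoxO factors, which holds them out of the nucleus. In striated muscle, FoxO factors that stay in the nucleus raise the atrogenes, a set of genes for protein breakdown by the proteasome and by autophagy, the process in which a membrane closes around cytoplasm or mitochondria and delivers them to the lysosome. The knock-in allele replaces serine 9 of GSK-3beta, the residue that Akt phosphorylates, with alanine.

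The series held 2 arrays of heart samples from GSK-3beta S9A knock-in mice aged 3.5 months and 2 of wild-type mice aged 3.6 months, all labelled strain C57B6 and taken at baseline without treatment. The labels do not give zygosity, sex, feeding state or time of day, nor whether each sample is a different animal. The p-values therefore rest on the scatter among these samples, part or all of which may be technical. The values are log2 expression levels made by the authors with RMA, which summarises the short probes of a probe set into a single level and gives no detection call.

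Median levels of the 4 arrays lay between 5.97 and 6.04. All 10 cardiomyocyte markers were bright, with mean levels from 12.98 to 14.72. They were all higher in knock-in hearts, by 0.05 at the median, and 6 had no overlap of the arrays. The 10 markers of skeletal muscle fibres, which also use Trim63 and Fbxo32, were dim at 4.27 to 6.83. Gsk3b itself differed by 0.18 between knock-in and wild-type hearts (-0.17 with its probe sets averaged) and did not pass (limma adjusted p = 0.761), and a transcript array cannot show the amino acid change. The 10 hepatocyte markers also moved with the groups, by 1.20 at the median. All 10 were higher in knock-in hearts, 9 with no overlap of the arrays. Over all genes 19.6% were higher without overlap. The log2 summed level of the hepatocyte markers was 10.86 and 11.58 in knock-in arrays, against 9.84 and 9.31 in wild-type arrays. The part of these liver transcripts in the results below was not tested.

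None of the 10 genes passed the test in knock-in against wild-type hearts. Bnip3 was the nearest, 1.38-fold lower in knock-in hearts. Foxo3 was 1.18-fold higher and Foxo4 1.20-fold lower with no overlap of the arrays, while the atrogenes Trim63 and Fbxo32 differed by 1.05-fold at most on their brightest probe sets. The test was limma over all 18193 genes with Benjamini-Hochberg adjustment, two-sided at 0.05, and an exact permutation test of 2 arrays against 2 cannot go below p = 0.333. Over all genes 0.00550% passed. At an unadjusted limma p under 0.05 stood 1 of the 10 genes, beside 7.39% of all genes. The arrays of the groups did not overlap in 5 of the 10, of which 1 was higher and 4 lower in knock-in hearts, beside 36.5% of all genes, of which 19.6% were higher and 17.0% lower. Of the 4 lower genes, Foxo4, Map1lc3b and Gabarapl1 each had another probe set that was higher in knock-in hearts without overlap. The median difference of the 10 was -0.07, beside a median of 0.000238 over all genes. It depended on the probe sets read, with -0.02 when those of a gene were averaged and 0.04 with the one listed first. In these whole-heart samples, fewer cells of a type and less RNA per cell cannot be told apart.

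**Figure D1:**
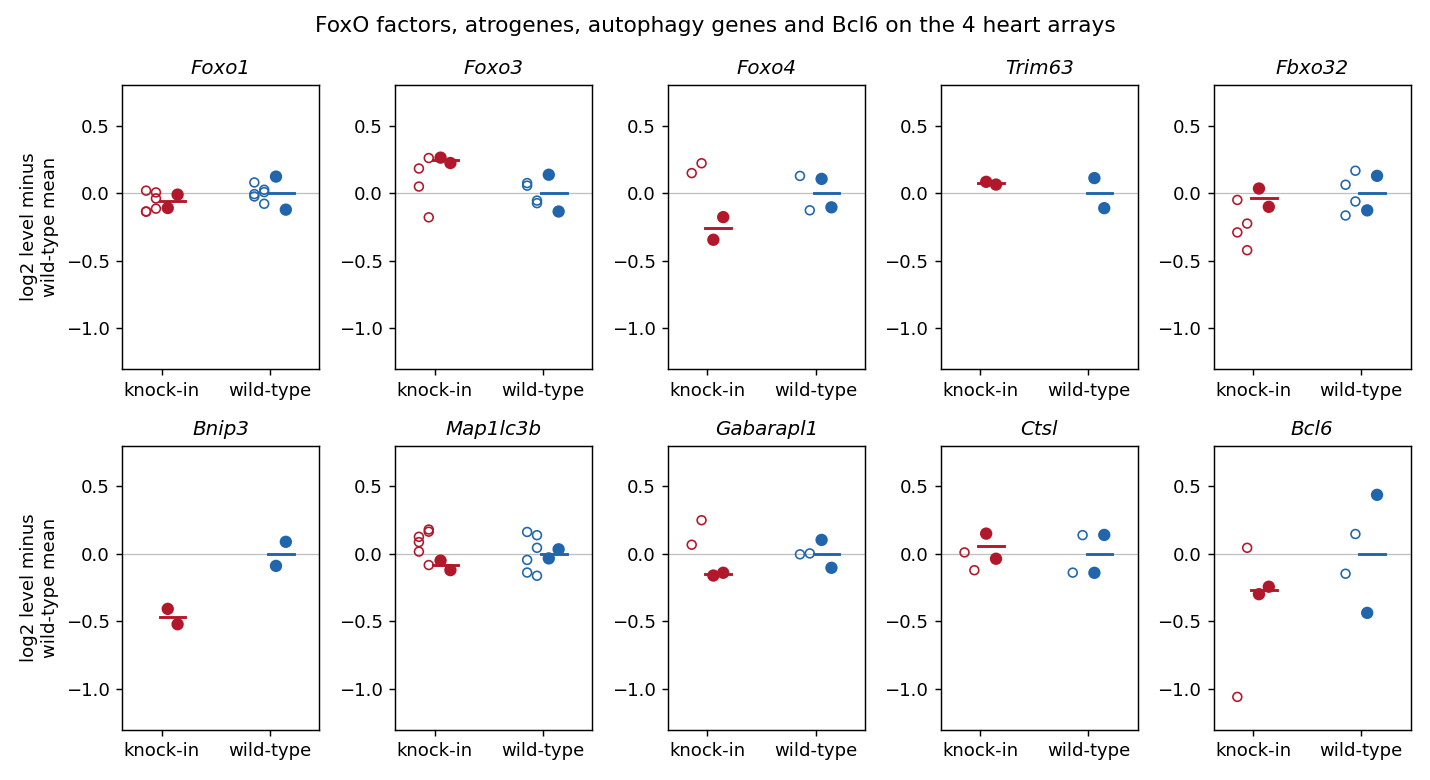
Level of each probe set on each array minus the wild-type mean of that probe set (log2, vertical axis), with knock-in arrays in red at left and wild-type arrays in blue at right of each panel. Filled points and bars show the values and means of the probe set with the highest mean, and open points the other probe sets. Both knock-in points of Bnip3 lie below both wild-type points, while the filled wild-type points of Bcl6 enclose the filled knock-in points.

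Of the 3 FoxO factors, Foxo1 gave 4 probe sets, all with a difference below 0 and none past the test. Its brightest probe set, 1416981_at, was at 8.59 and 8.69 in knock-in hearts, against 8.82 and 8.57 in wild-type hearts, and the groups overlapped. The difference was -0.06 on the log2 scale, with a 95% interval from -0.35 to 0.23 (limma adjusted p = 0.963). A second probe set of nearly the same brightness, 1416982_at, read 8.36 and 8.38 in knock-in hearts and 8.47 and 8.52 in wild-type hearts, without overlap. The probe set 1416983_s_at, whose suffix marks probes that can also match other transcripts, had 8.48 and 8.62 in knock-in hearts, against 8.61 and 8.62 in wild-type hearts. A dim probe set, 1456529_at, had 5.42 and 5.37 in knock-in hearts, against 5.48 and 5.33 in wild-type hearts. Across these 4 the differences ran from -0.13 to -0.01. Without wild-type 1 the difference of Foxo1 was 0.06.

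Foxo3, the factor best known for raising atrogenes and autophagy genes in muscle, was the only one of the 10 genes that was higher in knock-in hearts without overlap of the arrays. Its level was 10.68 and 10.64 in knock-in hearts, against 10.56 and 10.28 in wild-type hearts (probe set 1434831_a_at). The knock-in arrays lay close together, and wild-type 2 was the lowest of the 4. The difference was 0.24 (95% interval -0.05 to 0.54, limma adjusted p = 0.730), and it was 0.38 without wild-type 1 but 0.11 without wild-type 2. The probe set 1434832_at also had both knock-in arrays above both wild-type arrays, with 9.26 and 9.34 in knock-in hearts and 9.13 and 9.02 in wild-type hearts. The dim probe set 1450236_at read 5.42 and 5.20 in knock-in hearts and 5.45 and 5.30 in wild-type hearts, a difference of -0.07 with overlap. The probe sets of Foxo3 are from 1 set of samples and are not independent of each other.

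Foxo4 gave opposite differences on its 2 probe sets. On the brighter, 1456753_at, the level was 8.89 and 9.05 in knock-in hearts, against 9.34 and 9.13 in wild-type hearts, so both knock-in arrays were the lower ones. That difference was -0.26 (95% interval -0.55 to 0.03, limma adjusted p = 0.701), and it was -0.16 without wild-type 1. On 1422149_at, which was dimmer, it was 6.55 and 6.62 in knock-in hearts, against 6.52 and 6.27 in wild-type hearts, with the knock-in arrays higher by 0.18. Since each probe set separated the groups, but in opposite directions, the sign of Foxo4 depends on which is read, and with both averaged the difference was -0.04.

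Trim63 encodes MuRF1, the sarcomere-associated ubiquitin ligase that marks thick filament proteins for the proteasome. Of the 8 of these genes with a promoter in the RefSeq table used (build GRCm38.p6), Trim63 alone holds the exact letters GTAAACA, a FoxO element. Both strands were searched from 250 bases before to 50 bases after the start, but variants of these letters were not. The Trim63 promoter is therefore shown. The sequence is chr4:134314870-134315169 on the plus strand, 5′ to 3′. Capitals mark TGTTCT, the reverse complement of the glucocorticoid receptor hexamer AGAACA, and directly after it TGTTTAC, the reverse complement of GTAAACA.
Trim63 promoter: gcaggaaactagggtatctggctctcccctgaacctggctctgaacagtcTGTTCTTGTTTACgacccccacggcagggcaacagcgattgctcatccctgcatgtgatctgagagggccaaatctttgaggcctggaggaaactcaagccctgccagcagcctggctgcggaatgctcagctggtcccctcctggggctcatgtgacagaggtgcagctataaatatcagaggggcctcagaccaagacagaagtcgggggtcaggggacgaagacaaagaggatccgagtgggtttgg
The hexamer begins 200 bases before the start and the FoxO element 194 bases before it, and they do not overlap. Of 32851 RefSeq promoters of this length, 3.65% held GTAAACA and 19.0% held AGAACA on either strand. Such a match is a description of letters and not evidence of binding.

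The Trim63 transcript overlapped between the groups. It was at 12.06 and 12.04 in knock-in hearts, against 12.09 and 11.87 in wild-type hearts, on its single probe set 1438704_at. The wild-type arrays enclosed both knock-in arrays, and wild-type 2 was the lowest. The difference was 0.07 (95% interval -0.20 to 0.35, limma adjusted p = 0.946), and -0.04 without wild-type 2.

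Fbxo32 encodes atrogin-1, the F-box protein that recognises substrates for an SCF ubiquitin ligase in atrophying muscle. Its brightest probe set, 1435265_at, read 10.85 and 10.71 in knock-in hearts and 10.69 and 10.94 in wild-type hearts, with overlap. The difference was -0.03 (95% interval -0.33 to 0.27, limma adjusted p = 0.988), and it became 0.03 when knock-in 2 was left out and 0.09 when wild-type 2 was. The other probe sets gave larger differences in the lower direction. On 1417522_at the level was 8.96 and 9.02 in knock-in hearts, against 9.31 and 9.19 in wild-type hearts, a difference of -0.26 without overlap. On 1448747_at it was 9.85 and 9.48 in knock-in hearts, against 9.74 and 10.07 in wild-type hearts, a difference of -0.24 with overlap. All 3 probe sets of Fbxo32 were therefore below 0, by an amount that depended on the probe set, and none passed.

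Bnip3 encodes a BH3-related protein of the outer mitochondrial membrane that binds LC3 proteins and so marks mitochondria for autophagy, and it is induced by FoxO3 and by hypoxia. Its promoter is shown because Bnip3 had the smallest p of the 10 genes. The sequence is chr7:138909457-138909756 of GRCm38.p6 on the minus strand, 5′ to 3′, and the capitals mark the E-box CACGTG, the palindromic site read by basic helix-loop-helix factors, which begins 108 bases before the start.
Bnip3 promoter: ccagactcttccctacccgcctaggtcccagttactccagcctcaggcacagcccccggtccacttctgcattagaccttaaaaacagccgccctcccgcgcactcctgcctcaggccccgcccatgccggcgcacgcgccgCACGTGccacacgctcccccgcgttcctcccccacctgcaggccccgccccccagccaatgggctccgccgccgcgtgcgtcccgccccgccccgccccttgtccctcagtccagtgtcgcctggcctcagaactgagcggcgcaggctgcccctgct
Of all promoters 7.15% held CACGTG, and among the 8 genes with a promoter so did Bnip3, Ctsl and Bcl6, 3 in all. CAAAACA, the insulin response element, was in none of the 8 and in 6.28% of all promoters. No GTAAACA or AGAACA lay in the Bnip3 window.

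The level of Bnip3 was 12.40 and 12.29 in knock-in hearts, against 12.72 and 12.90 in wild-type hearts, on its single probe set 1422470_at. Both knock-in arrays were below both wild-type arrays. Group means were 12.35 ± 0.08 in knock-in hearts and 12.81 ± 0.13 in wild-type hearts (SD, n = 2 each). The difference of -0.46, with a 95% interval from -0.73 to -0.19, had an unadjusted limma p of 0.00534 and ranked 251 among all genes, but an adjusted p of 0.387, so it did not pass. It stayed below 0 in all 12 alternatives run, from -0.55 to -0.37, and the lowest limma adjusted p was 0.0938. Most of these could not turn its sign. With a single probe set, the changes of prior, block, gene set or probe set left it at -0.46. Because the arrays do not overlap, leaving 1 out could not turn it either. The size of the difference was above that of 97.9% of all genes, and its within-group SD above that of 48.7%.

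Map1lc3b and Gabarapl1 encode ATG8-family proteins, the ubiquitin-like proteins that are attached to lipid on the growing autophagosome. Map1lc3b was at 12.04 and 11.97 in knock-in hearts, against 12.06 and 12.12 in wild-type hearts, on 1415929_at. The arrays did not overlap but lay within a narrow band, and the difference was -0.09 (95% interval -0.32 to 0.15, limma adjusted p = 0.912). Its other bright probe sets did not follow. On 1415930_a_at the level was 11.87 and 11.94 in knock-in hearts, against 11.73 and 11.82 in wild-type hearts, so the knock-in arrays were the higher ones. On 1415928_a_at it was 12.03 and 11.82 in knock-in hearts, against 11.76 and 12.04 in wild-type hearts. The dim 1428024_at read 5.16 and 5.32 in knock-in hearts and 5.31 and 4.98 in wild-type hearts. With all 4 averaged the difference was 0.04.

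Gabarapl1, one of the FoxO3-induced genes of muscle autophagy, also gave opposite signs. The brighter probe set, 1416419_s_at, had 11.16 and 11.18 in knock-in hearts, against 11.43 and 11.22 in wild-type hearts, with both knock-in arrays lower. The difference was -0.15 (95% interval -0.42 to 0.12, limma adjusted p = 0.828), with -0.0470 when wild-type 1 was left out and -0.25 when wild-type 2 was. The suffix of this probe set says that its probes can match other transcripts too. On 1416418_at the level was 8.85 and 9.03 in knock-in hearts, against 8.78 and 8.79 in wild-type hearts, so there the knock-in arrays were higher, by 0.16.

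Ctsl encodes cathepsin L, a cysteine protease that degrades proteins in the lysosome. On 1451310_a_at its level was 11.89 and 11.71 in knock-in hearts, against 11.60 and 11.88 in wild-type hearts. One array of each group was high and one low, and the difference was 0.06 (95% interval -0.27 to 0.38, limma adjusted p = 0.970). Leaving out knock-in 1 gave -0.04, and leaving out wild-type 1 gave -0.08. The dim 1457724_at read 5.75 and 5.62 in knock-in hearts and 5.60 and 5.88 in wild-type hearts.

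Bcl6 encodes a zinc finger repressor that FoxO factors induce, best known from germinal centre B cells. It was at 8.29 and 8.34 in knock-in hearts, against 8.15 and 9.02 in wild-type hearts, on 1421818_at. The wild-type arrays were at the 2 ends, and the within-group SD of Bcl6 was above that of 99.6% of all genes. The difference was -0.27 (95% interval -0.91 to 0.37, limma adjusted p = 0.885), and 1 array decided its sign, with -0.71 without wild-type 1 and 0.17 without wild-type 2. On 1450381_a_at the level was 6.42 and 7.52 in knock-in hearts, against 7.33 and 7.62 in wild-type hearts, where knock-in 1 was the low array. Of the lymphocyte markers, 9 were measured and all had a difference below 0 (median -0.20, log2 summed level 9.51 and 9.43 in knock-in arrays, against 9.69 and 9.53 in wild-type arrays). The arrays of the groups overlapped in 7 of these markers and did not in 2, beside 36.5% of all genes without overlap. Mean levels of these markers ran from 4.31 to 7.58. Their part in the Bcl6 values was not tested.

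**Figure D2:**
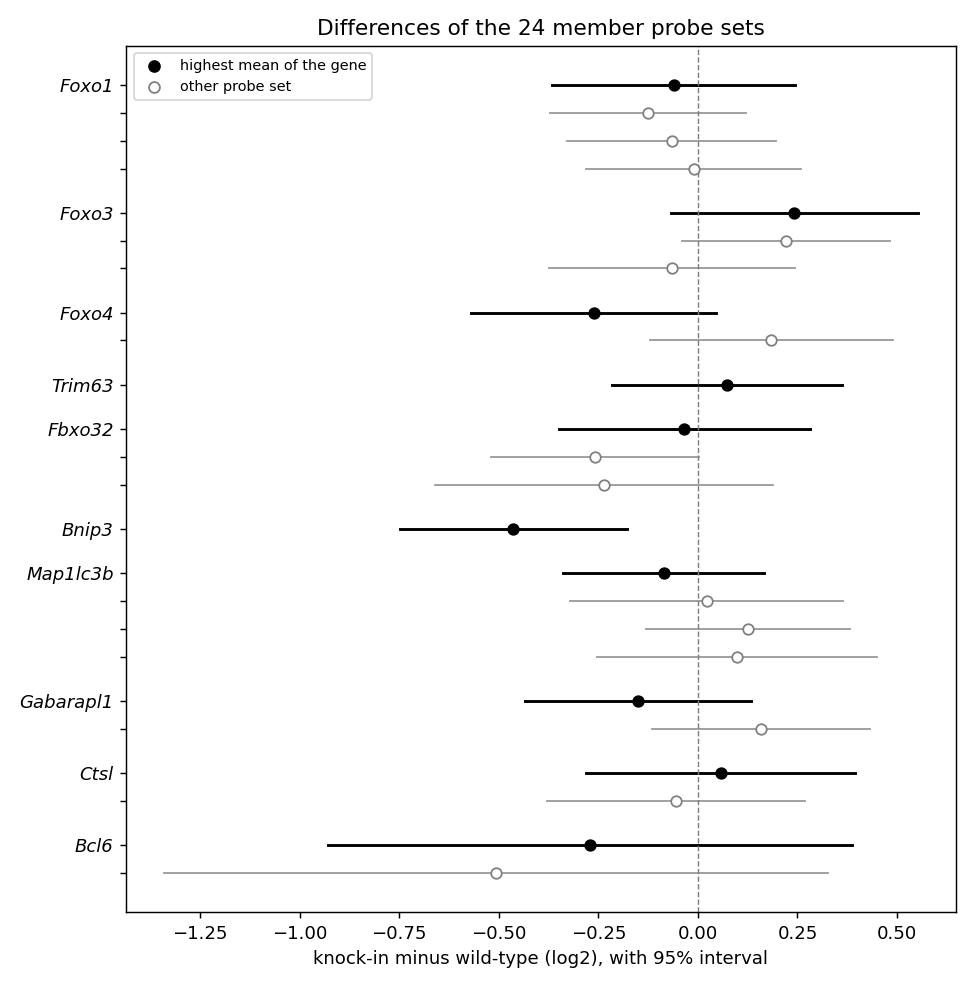
Knock-in minus wild-type difference of each of the 24 probe sets (log2, horizontal axis) with its 95% interval from the limma fit over all probe sets. Filled points are the probe set with the highest mean of each gene and open points the others. The interval of Bnip3 alone excludes 0, and probe sets lie on both sides of 0 for Foxo3, Foxo4, Map1lc3b, Gabarapl1 and Ctsl.

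Over the 24 probe sets, 9 were higher and 15 lower in knock-in hearts. The arrays did not overlap in 11, of which 5 were higher and 6 lower, beside 33.9% of all probe sets other than controls. In a limma fit over those 45037 probe sets none of the 24 passed and 1, that of Bnip3, had an unadjusted p under 0.05, beside 0% that passed and 5.84% at an unadjusted p under 0.05 in all. Of the 8 genes with more than 1 probe set, 5 had probe sets of opposite sign. The 10 genes also varied among the wild-type arrays. The median absolute difference over them was 0.0847 between the knock-in arrays and 0.234 between the wild-type arrays, while over all genes it was 0.109 between the knock-in arrays and 0.132 between the wild-type arrays.

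Among 20 other FoxO target genes, 1 fell in knock-in hearts, none rose and 19 did not pass. Over all 18193 genes, only this 1 passed (0.00550%). The one that fell was Cdkn1a, which encodes the cell cycle inhibitor p21. It was at 9.06 and 8.98 in knock-in hearts, against 10.63 and 10.76 in wild-type hearts, a difference of -1.67 (limma adjusted p = 0.0434). That call was lost without any single array, with adjusted p of 0.408 when knock-in 2 was left out, 0.151 for knock-in 1, 0.323 for wild-type 2 and 0.229 for wild-type 1, and also with the replicate number as a block (0.420), with crossed pairs as a block, tried after the data were seen (0.0767), and with the probe set listed first (0.0706). Over the 12 alternatives the adjusted p ran from 0.00176 to 0.420. Ddit4, the mTORC1 inhibitor, had 9.99 and 9.84 in knock-in hearts, against 11.14 and 11.38 in wild-type hearts (adjusted p = 0.0724). Pdk4, the kinase that shuts off pyruvate dehydrogenase, had 11.58 and 11.09 in knock-in hearts, against 12.66 and 13.17 in wild-type hearts (adjusted p = 0.220). Ddit4 passed in 5 of the 12 alternatives, with adjusted p from 0.00616 to 0.0346 in those, and Pdk4 in 1 of them, with an intensity trend and robust prior (0.0329), while over all 12 the highest adjusted p was 0.709 for Ddit4 and 0.944 for Pdk4.

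The other FoxO targets had differences in both directions. At an unadjusted limma p under 0.05 stood 4 lower genes, where the fourth was the BH3-only gene Bcl2l11 (-0.65), and 3 higher genes, Txnip (0.43), Sesn1 (0.41) and Gadd45a (0.35). Over all genes 2.99% were lower and 4.40% higher at that p. Bcl2l11, Txnip, Sesn1 and Gadd45a are named after their values were seen. Arrays did not overlap in 8 higher and 5 lower genes of the 20, beside 19.6% of all genes higher and 17.0% lower, and the median difference was -0.04.

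Of 16 measured kinases and modifiers of FoxO proteins none passed, with a median of 0.03. Sgk1, a kinase that phosphorylates FoxO3 and is itself induced by glucocorticoids, was at 9.39 and 9.49 in knock-in hearts, against 9.92 and 10.43 in wild-type hearts. Both knock-in arrays were lower, by 0.74 on average, with an unadjusted limma p of 0.00475 and an adjusted p of 0.366, and the difference was -0.48 without wild-type 2. Akt1 differed by 0.20 (-0.01 with averaged probe sets) and Akt2 by -0.13 (0.03 with the probe set listed first), both with overlap of the arrays. Transcript levels say nothing about the phosphorylation of FoxO proteins or where in the cell they lie.

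**Figure D3:**
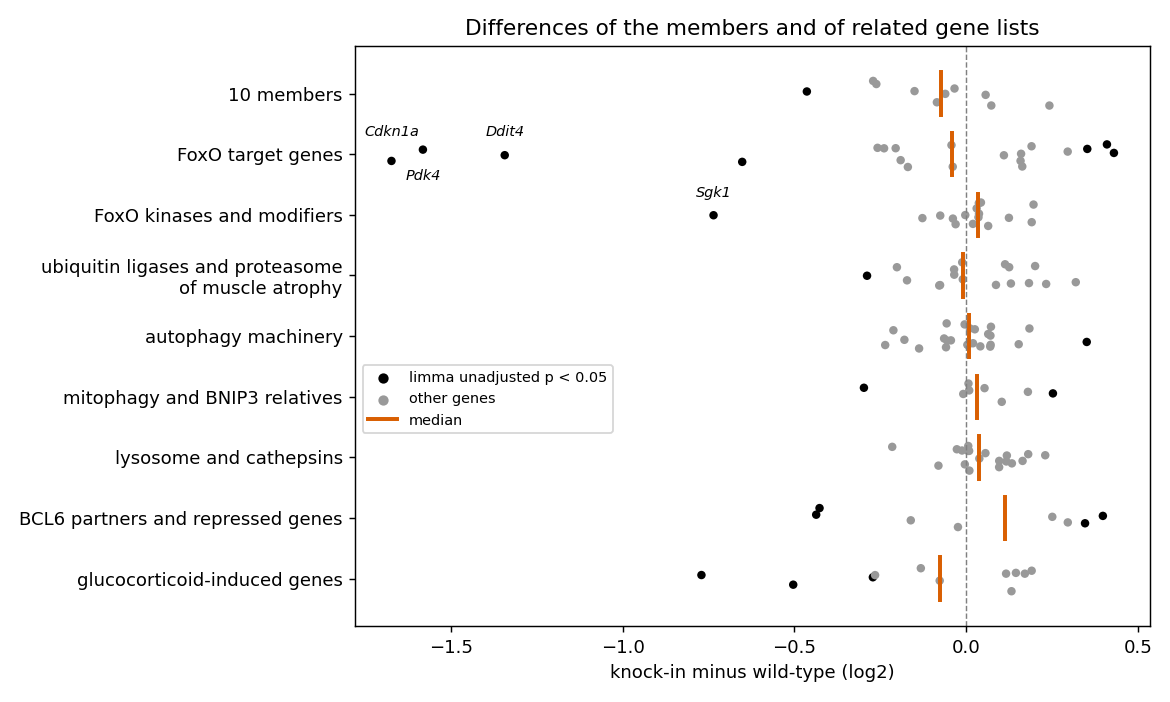
Knock-in minus wild-type difference (log2, horizontal axis) of the 10 genes and of the members of 8 related lists, a point per gene, with the median of each list as an orange bar. Black points have an unadjusted limma p under 0.05. Cdkn1a (-1.67), Pdk4 (-1.58) and Ddit4 (-1.34) lie to the left of the other plotted genes, of which Mt2 (-0.77) and Sgk1 (-0.74) come next, while the medians of all lists stay between -0.08 and 0.11.

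Of the 17 measured ubiquitin ligase and proteasome genes linked to muscle atrophy, none passed and the median was -0.01. The ubiquitin ligase gene Cblb had 8.37 and 8.25 in knock-in hearts, against 8.52 and 8.68 in wild-type hearts, a difference of -0.29 (limma adjusted p = 0.635). A pair of deubiquitinases of the proteasome pointed the other way, Usp14 by 0.32 and Psmd14 by 0.20, with adjusted p of 0.701 and 0.723 from limma. The difference of Cblb was -0.16 with averaged probe sets and -0.11 with the one listed first. Usp14 differed by 0.0352 with averaged probe sets, 0.17 without wild-type 1 and 0.19 without knock-in 2. In 13 of the 17 the arrays did not overlap, 8 higher and 5 lower, beside 36.5% of all genes (19.6% higher and 17.0% lower).

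The autophagy machinery was spread evenly about 0. None of 24 measured genes passed, 14 were above and 10 below 0, and the median was 0.01. Atg10, the conjugating enzyme for ATG12, had the smallest p, at 8.77 and 8.80 in knock-in hearts, against 8.25 and 8.61 in wild-type hearts (difference 0.35, limma adjusted p = 0.649). Without wild-type 1 its difference was 0.17, and without wild-type 2 it was 0.53. Atg7, the activating enzyme of the same conjugation system, differed by -0.24, and Wipi2, which brings that system to the forming membrane, by -0.21. The size of both depended on the probe set, with -0.06 for Atg7 when averaged and -0.02 when the first listed was read, and -0.09 for Wipi2 on the first listed. Without wild-type 1 Atg7 was at -0.13, and without knock-in 2 Wipi2 was at -0.12.

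Among 8 measured mitophagy genes and relatives of BNIP3 none passed (median 0.03). Bcl2l1, which encodes the survival protein Bcl-xL, was at 9.32 and 9.29 in knock-in hearts, against 9.64 and 9.55 in wild-type hearts, a difference of -0.30. Dnm1l, the mitochondrial fission GTPase, was at 10.59 and 10.57 in knock-in hearts, against 10.29 and 10.36 in wild-type hearts, a difference of 0.25. The fusion GTPase Mfn2 differed by 0.18 (-0.00154 with averaged probe sets). With averaged probe sets Bcl2l1 differed by -0.17 and Dnm1l by 0.14. The limma adjusted p of the 3 lay between 0.557 and 0.801.

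None of the 19 measured lysosome and cathepsin genes passed, and none had an unadjusted limma p under 0.05. The smallest p belonged to cathepsin C, Ctsc (0.23), to Tfeb, the transcription factor that drives lysosome genes (-0.22), and to the sialidase gene Neu1 (0.16). Averaged probe sets gave 0.0921 for Ctsc and 0.0793 for Neu1. Single arrays also moved them, to 0.12 for Ctsc without knock-in 1, -0.0386 for Tfeb without knock-in 2 and 0.0428 for Neu1 without wild-type 2. The median was 0.04.

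Of 8 measured partners and repressed genes of BCL6 none passed, 4 were above and 4 below 0, and the median was 0.11. At an unadjusted limma p under 0.05 stood 2 higher and 2 lower genes, beside 4.40% and 2.99% of all genes. The arrays did not overlap in 7 of the 8, 4 higher and 3 lower, beside 36.5% of all genes (19.6% higher and 17.0% lower). The corepressor deacetylase gene Hdac3 was at 9.35 and 9.44 in knock-in hearts, against 9.04 and 9.05 in wild-type hearts. The cytokine signalling inhibitors Socs2 and Cish were lower, with Socs2 at 9.69 and 9.69 in knock-in hearts, against 9.98 and 10.26 in wild-type hearts. Cish was at 11.64 and 11.38 in knock-in hearts, against 11.86 and 12.04 in wild-type hearts. The limma adjusted p of Hdac3, Socs2 and Cish lay between 0.463 and 0.491. The other listed genes also went both ways. Hdac4 (0.40), Prdm1 (0.30) and Ccnd2 (0.25) were higher and Igf1 (-0.16) lower without overlap, while Bcor (-0.02) overlapped. These other genes are named after their values were seen.

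Glucocorticoids raise Trim63 and Fbxo32 in muscle together with FoxO factors, and 11 other glucocorticoid-induced genes were read beside them. None passed, 5 were above and 6 below 0, and the median was -0.08. The arrays did not overlap in 5, all lower in knock-in hearts, beside 36.5% of all genes, of which 17.0% were lower. Errfi1, an inhibitor of the EGF receptor, had a difference of -0.50, the metallothionein gene Mt2 -0.77 and Tsc22d3, which encodes GILZ, -0.27, with limma adjusted p between 0.430 and 0.616. Mt2 was at 11.16 and 10.92 in knock-in hearts, against 11.42 and 12.20 in wild-type hearts, where wild-type 2 was the highest array. Leaving that array out gave a difference of -0.38, and leaving out wild-type 1 gave -1.16. The difference of Tsc22d3 was -0.13 with averaged probe sets.

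The genes whose values over the 4 arrays were most like those of Bnip3, in a comparison with 9095 brighter genes (means over the median), were Egflam, Pim1 and Alpk2. Likeness was the root mean square distance of the gene-centred log2 values, 0.0135 for Egflam, 0.0186 for Pim1 and 0.0223 for Alpk2. Egflam encodes the matrix protein pikachurin, Pim1 a serine/threonine kinase and Alpk2 a kinase of the alpha-kinase family. Alpk2 was at 11.58 and 11.45 in knock-in hearts, against 11.91 and 12.03 in wild-type hearts. With 4 arrays, many genes come close to any 1 pattern.

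**Figure D4:**
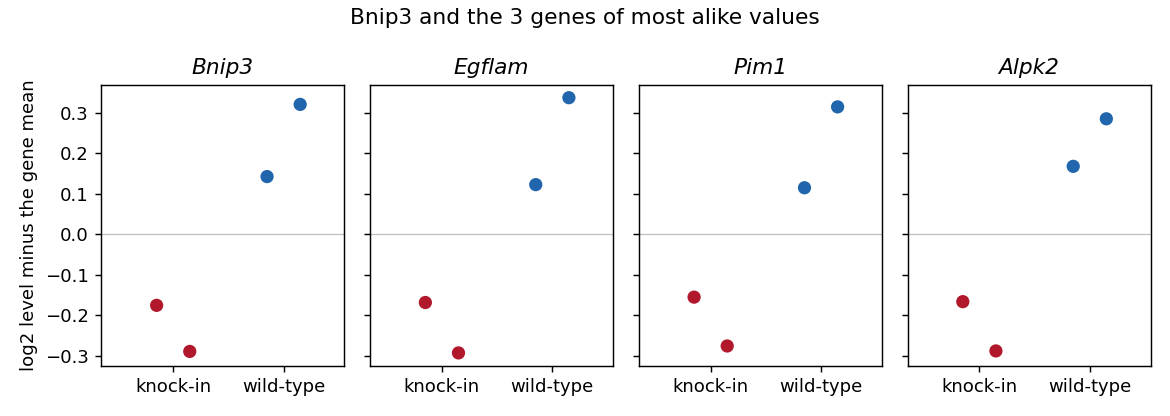
Level on each array minus the mean of the gene over the 4 arrays (log2, vertical axis) for Bnip3, Egflam, Pim1 and Alpk2, with knock-in arrays in red at left and wild-type arrays in blue at right. In each panel knock-in 2 is the lowest array and wild-type 2 the highest.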

How the data were processed

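Total RNA of heart samples was labelled as biotinylated cRNA and hybridised to Affymetrix 3' expression arrays. The deposited values were log2 levels that the authors made with RMA in Affymetrix Expression Console, per the submitters' processing notes, and per the labels normalization covered these 4 arrays alone. With 2 arrays per group, their number limits the precision.

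Of 45101 probe sets, 64 were controls, 34945 had 1 gene symbol, 932 several and 9160 none, and 34741 of these symbols were brought up to date by Entrez identifier from a RefSeq table of GRCm38.p6. Groups came from sample titles. Differences, knock-in minus wild-type, were fitted in limma 3.58.1 (R 4.3.3) with lmFit and eBayes. Dim probe sets were kept. The 10 genes, the lists and the tests were chosen with earlier results of these data known. The named genes were the 10, Gsk3b, the 3 of smallest p in each list with any that passed, and the 3 most like the gene of smallest p among the 10.

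Replicate numbers carry no stated pairing, and the block on them was an alternative. Other alternatives were an intensity trend with robust prior, centred or quantile normalized arrays, genes above the median, averaged or first-listed probe sets, and leaving out each array. Each of 10 simulated runs held 18193 genes, of which 200 were changed. There limma recovered 3.43% of genes changed 1.41-fold, 79.7% of those changed 2-fold and 99.2% of those changed 4-fold. False calls averaged 6.9 per run. These shares do not carry over to the fit reported, where Ddit4 (2.54-fold) and Pdk4 (2.99-fold) did not pass. Some listed genes were not analysed here.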

Additional observations from a re-analysis of the deposited data

How the results depend on the processing

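None of the 10 genes passed in any of the 12 alternatives, nor did any of their 24 probe sets in the alternatives that keep all probe sets apart. With fits of 4 arrays or fewer this says little about their changes. In the fit reported, Ddit4 (2.54-fold) and Pdk4 (2.99-fold) did not pass either. Bnip3 and Foxo3 kept their sign in all 12 alternatives. Since the arrays of both do not overlap, leaving 1 out could not turn their sign, nor could the block or the prior. The number of genes past the threshold, 1 in the fit reported (0 higher and 1 lower in knock-in hearts), was 22 with an intensity trend and robust prior (12 higher, 10 lower), 11 with centred arrays and 11 with quantile normalization (7 higher and 4 lower in each), 7 among genes above the median (3 higher, 4 lower), 11 with averaged probe sets (8 higher, 3 lower) and 0 with the first-listed probe set. It was 0 with the replicate block and 0 with each array left out in turn, where a group left with 1 array borrows its spread from the rest. At an unadjusted p under 0.05 these fits held between 677 and 1966 genes. The deviations of same-numbered arrays had a correlation of -0.03 over all genes and -0.15 over genes above the median, and crossed pairs as a replicate block, added after the data were seen, also gave 0. Signs turned for 12 of the named genes. With averaged probe sets the difference was 0.0401 for Map1lc3b, 0.00406 for Gabarapl1, -0.17 for Gsk3b, -0.0126 for Akt1 and -0.00154 for Mfn2. With the first-listed probe set it was 0.18 for Foxo4, 0.0217 for Map1lc3b, 0.16 for Gabarapl1 and 0.0313 for Akt2. With centred arrays it was 0.00498 for Fbxo32. With single arrays left out the difference ran from -0.16 to 0.0939 for Fbxo32, from -0.0833 to 0.20 for Ctsl, from -0.18 to 0.0617 for Foxo1, from -0.0379 to 0.18 for Trim63 and from -0.71 to 0.17 for Bcl6. The cause was not tested. Of 336 values of the 28 other named genes, 319 kept direction and side of the threshold, 4 turned in sign, 6, of Ddit4 and Pdk4, passed only in an alternative and 7, all of Cdkn1a, no longer passed.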

Other observations

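Bnip3 is also a target of the hypoxia factor HIF-1, and 15 other HIF-1 target genes were read after its values had been seen. None passed limma's test over all genes, 4 had an unadjusted p under 0.05 (beside 7.39% of all genes, 4.40% higher and 2.99% lower), 7 were above and 8 below 0, and the median difference was -0.00094. All 4 were higher in knock-in hearts, namely the glycolytic activator Pfkfb3 (6.83 and 6.89 in knock-in hearts, against 6.53 and 6.43 in wild-type hearts), Ankrd37 (0.42), adrenomedullin Adm (0.34) and Higd1a (0.27). The oxygen sensor Egln1 was at 12.43 and 12.24 in knock-in hearts, against 12.59 and 12.56 in wild-type hearts, a difference of -0.24, and Vegfa differed by -0.13.

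The probe set assigned to Foxo3 together with a second gene, 1444226_at, was at 6.15 and 5.99 in knock-in hearts, against 6.07 and 6.01 in wild-type hearts, a difference of 0.03 with overlap of the arrays.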
